A study of Mus musculus with 2 samples.

Results

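The genes described here encode the killing machinery of cytotoxic lymphocytes, namely 4 granzymes (Gzma, Gzmb, Gzmk and Gzmm), perforin (Prf1), the granule membrane protein Nkg7 and Fas ligand (Fasl). They were taken by symbol from the feature lists, and 7 of 32285 features were found. They were followed in single γδ T cells of uninfected mouse lung, in 2 droplet libraries with 1 library per group, from mice aged 5 to 7 weeks. The WT library held γδ T cells that lacked the Vγ1 receptor chain, sorted from mice of the strain C57BL/6NCrl. Vγ1+ cells made up the KO library, sorted from the strain B6.Cg-Tcrgtm1lku(B6.Vg4-/-Vg6-/-), whose germline lacks the Vγ4 and Vγ6 chains in all cells. How many animals were pooled is not given in the sources used here. Sort, genotype and library differed together and cannot be told apart, and with 1 library per group no test was possible.

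Cytotoxic lymphocytes store granzymes, a family of serine proteases, in granules together with perforin, a protein that forms pores in the target membrane and lets granzymes enter the target cell. Fas ligand kills by a separate route, through the death receptor Fas on the target. Among lung γδ T cells, those committed to interferon-γ (γδ1 cells) are known for cytotoxic genes, whereas those that make interleukin-17 (γδ17 cells) are not. Ly6c2 encodes a surface protein of type 1 and memory lymphocytes, and Tmem176b encodes an intracellular channel protein that is abundant in interleukin-17-type lymphocytes. Detection of these 2 transcripts was used to group cells beside the receptor chains, which the files name Tcrg-V1, Trgv2, Tcrg-V4 and so on for γ and Trdv or Trav-dv for δ.

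All 7 genes are annotated as protein coding in GRCm38. Gzma lies on chr13:113093825-113100981 and Gzmk on chr13:113171608-113225908, both on the minus strand. Gzmb lies on chr14:56258838-56262260 and Fasl on chr1:161780689-161788495, also on the minus strand. Gzmm lies on chr10:79689020-79695261, Prf1 on chr10:61297833-61304680 and Nkg7 on chr7:43437073-43438249, on the plus strand. Gzmk overlaps Esm1 on the opposite strand, so its low counts are uncertain. Gzma and Gzmb, which lie in different granzyme clusters of the genome, are shown by their promoters because their transcripts parted between groups of cells, and Prf1 and Nkg7 are shown because their partners in a cell differed. Each window runs from 250 bases before to 50 bases after the start in RefSeq (GRCm38.p6), written 5′ to 3′ on the strand of the gene. Capitals mark matches on either strand to the T-box motif TCACACC, the Runx motif TGTGGT, the AP-1 motif TGANTCA and the Ets motif CAGGAAG.
Gzma, chr13:113100932-113101231, minus strand: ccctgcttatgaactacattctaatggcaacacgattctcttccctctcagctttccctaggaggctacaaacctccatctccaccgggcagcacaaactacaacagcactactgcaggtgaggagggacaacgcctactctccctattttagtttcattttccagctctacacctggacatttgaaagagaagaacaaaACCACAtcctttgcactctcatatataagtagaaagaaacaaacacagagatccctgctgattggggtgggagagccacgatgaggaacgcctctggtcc
Gzmb, chr14:56262285-56262584, minus strand: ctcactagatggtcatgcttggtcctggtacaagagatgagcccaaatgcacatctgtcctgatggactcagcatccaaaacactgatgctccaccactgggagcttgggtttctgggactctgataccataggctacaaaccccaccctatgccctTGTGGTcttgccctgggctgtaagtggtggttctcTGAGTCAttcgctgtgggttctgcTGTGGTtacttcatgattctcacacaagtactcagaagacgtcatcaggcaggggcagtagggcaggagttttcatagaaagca
Prf1, chr10:61297586-61297885, plus strand: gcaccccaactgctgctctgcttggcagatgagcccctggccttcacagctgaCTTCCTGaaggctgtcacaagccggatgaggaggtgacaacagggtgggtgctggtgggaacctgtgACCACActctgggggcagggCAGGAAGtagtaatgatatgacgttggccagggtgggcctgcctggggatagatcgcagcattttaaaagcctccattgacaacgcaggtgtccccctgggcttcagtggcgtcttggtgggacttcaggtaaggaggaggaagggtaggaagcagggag
Nkg7, chr7:43436888-43437187, plus strand: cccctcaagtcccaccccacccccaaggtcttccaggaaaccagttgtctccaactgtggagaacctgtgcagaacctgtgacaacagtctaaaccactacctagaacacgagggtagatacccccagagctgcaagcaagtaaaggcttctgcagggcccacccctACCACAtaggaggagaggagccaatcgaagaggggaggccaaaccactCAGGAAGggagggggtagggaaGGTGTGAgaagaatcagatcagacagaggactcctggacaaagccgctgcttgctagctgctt
The Runx letters were in a promoter of 5 of the 7 genes (Gzma, Gzmb, Gzmm, Prf1 and Nkg7), against 16.8% of 32851 promoters of the same length. The Ets letters were in 3 (Prf1, Nkg7 and Fasl), against 13.3%, and the T-box letters in 3 (Gzmk, Gzmm and Nkg7), against 3.98%. The AP-1 letters were in Gzmb alone of the 7, against 7.81% of all promoters. No motif match overlapped another in the windows printed here. These matches describe letters in a window and were not set against binding data.

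After the cell filter of the study was applied and myeloid-like and B-like clusters were set aside, T cells numbered 2412 in WT and 6574 in KO, with 8545438 and 25613959 unique molecular identifiers (UMIs) and medians of 3282.5 and 3520.5 UMIs per cell. Levels are CPM, the UMIs of a gene summed over the cells of a group and scaled to a common total of 1000000 UMIs. Shares of cells were read at an equal depth of 2000 UMIs drawn from each cell, in 2057 WT and 5761 KO cells that were deep enough. All intervals are 95% intervals of counting error alone. Tcrg-V6 had 2902 UMIs in WT and 0 in KO, and Tcrg-V1 had 28.9 and 212.0 CPM, the direction of the labels. Tcrg-V4, however, had 81.8 CPM in WT and 50.2 CPM in the KO library, which goes against its label. The text therefore speaks of the KO-labelled library, and directions between the libraries rest on that label. Only 23 barcodes occurred in both libraries. Y-linked UMIs were read in 24.7% of WT and 0.456% of KO-labelled T cells, so the sex makeup of the libraries differed, and the library ratios of all 7 genes within such cells are given beside the ratios themselves.

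Granzymes were compared first between the libraries. Gzma, which encodes the tryptase-type granzyme A, was much lower in KO-labelled T cells, at 51.2 CPM (1311 UMIs), than in WT, at 304.4 CPM (2601 UMIs). Its log2 ratio was -2.57 (-2.67 to -2.48). Gzmb, the aspartate-cleaving granzyme B that activates caspases, was at 83.6 CPM in WT and 59.1 CPM in KO-labelled cells (log2 ratio -0.50, -0.63 to -0.37). The 2 remaining granzymes were rare. Gzmk had 3.16 and 1.25 CPM (27 and 32 UMIs, log2 ratio -1.34, -2.12 to -0.54), and Gzmm, granzyme M, had 5.50 and 3.20 CPM (47 and 82 UMIs, -0.78, -1.32 to -0.23). Against a 2-fold limit, 2 of the 7 genes (Gzma and Gzmk) were lower and 0 were higher, where 5.45% of 12031 genes with at least 30 UMIs were lower and 3.24% higher, and the median log2 ratio of those genes was 0.03. The Gzmk call rested on few UMIs and turned to 0.56 (-1.41 to 3.67) against WT cells with Y-linked UMIs, to 0.52 (-1.24 to 2.91) between cells with Xist alone and to 1.52 without cluster 1, described below.

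Perforin and the other 2 genes differed less. Prf1 had 17.6 CPM in WT and 18.3 CPM in KO-labelled cells, and its log2 ratio of 0.06 (-0.21 to 0.33) could not be told from 0 by counting error. Nkg7, which takes part in granule release, was at 263.3 and 324.0 CPM (log2 ratio 0.30, 0.23 to 0.37). Fasl was at 25.3 and 22.4 CPM (log2 ratio -0.17, -0.40 to 0.06). The Gzma ratio was -2.64 when both libraries were limited to cells that had Xist but lacked Y-linked UMIs. It was smaller, -1.67, for KO-labelled cells against WT cells with Y-linked UMIs. For Fasl these values were -0.63 (-0.96 to -0.29) and 0.44 (-0.02 to 0.95), and the latter could not be told from 0 by counting error. The KO-labelled cells also differed between these comparisons. Gzmb was at -0.42 and -0.39, Gzmm at -1.72 (-2.44 to -0.98) and -0.40 (-1.35 to 0.71), Prf1 at -0.07 and 0.39 (-0.12 to 0.95) and Nkg7 at 0.17 and 0.53 in the same comparisons. Within WT, Gzma had 162.6 CPM in cells with Y-linked UMIs and 403.4 CPM in cells with Xist alone, while Gzmb had 77.3 and 78.4 CPM.

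The share of cells with a transcript gave another picture of Gzma than its level. After thinning, 4.76% of WT (3.88 to 5.78) and 3.40% of KO-labelled T cells (2.95 to 3.90) had a Gzma UMI, a far smaller gap than that of CPM. Gzmb UMIs were in 8.31% and 5.64%, Prf1 in 3.06% and 4.01%, and Fasl in 4.47% and 4.11%. Nkg7 UMIs were in 22.5% of WT (20.7 to 24.3) and 38.2% of KO-labelled cells (37.0 to 39.5). Cells of the myeloid-like and B-like clusters should lack these genes, yet among 68 of them in WT 7.35%, and among 45 in the KO-labelled library 24.4%, had an Nkg7 UMI, and 1.47% and 2.22% had a Fasl UMI. The granzymes and Prf1 were read in 0 of these cells, which allows a share of up to 4.41% (WT) and 6.67% (KO-labelled). Apart from Gzma and Gzmb in WT, the granzyme and Prf1 shares lay below these limits, so these few cells do not set them apart from background.

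**Figure D1:**
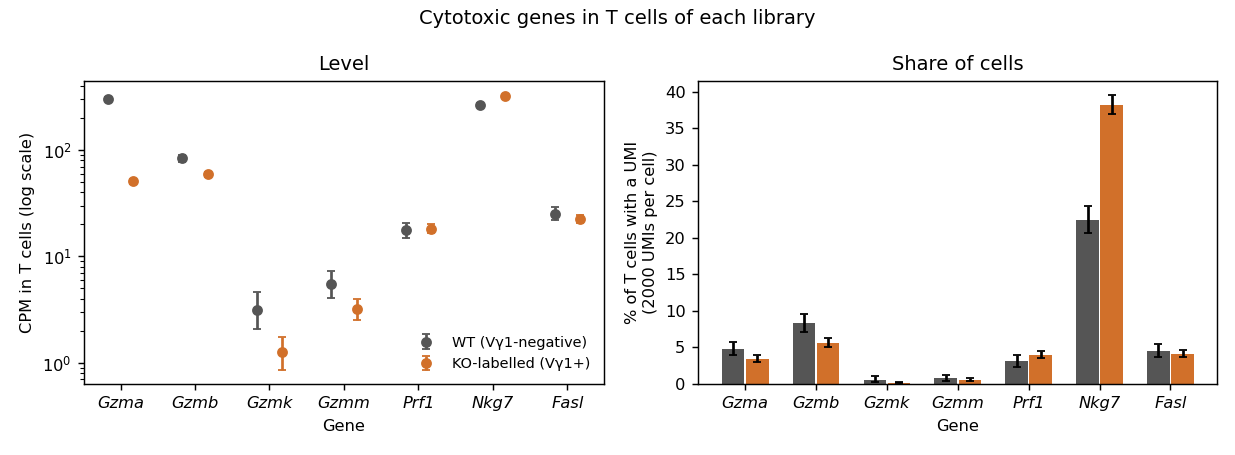
Level (CPM, log axis) and share of T cells with a UMI (percent, cells thinned to 2000 UMIs) of the 7 genes in the WT and KO-labelled libraries, with 95% counting intervals. Gzma stands apart in level, at 304.4 against 51.2 CPM, while Nkg7 stands apart in share, at 22.5% against 38.2%. In myeloid-like and B-like cells, not drawn, the Nkg7 shares were 7.35% and 24.4%.

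The Gzma level rested on few cells. In WT, 133 cells held all Gzma UMIs, with a median of 5 and a maximum of 214 UMIs per cell, and 13 cells held 50% of them. Among KO-labelled cells 294 held a Gzma UMI, with a median of 2 and a maximum of 56. The 59 WT cells with at least 10 Gzma UMIs held 2424 of the 2601 UMIs, whereas the 28 such KO-labelled cells held 691 of 1311. Gzmb was spread more evenly, over 260 WT and 532 KO-labelled cells with a median of 1 UMI each, although single cells held up to 23 and 71. The top 10 cells held 18.6% of WT and 20.5% of KO-labelled Gzmb UMIs, against 43.6% and 29.4% of Gzma.

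Cells rich in Gzma carried Gzmb more often than cells with 1 Gzma UMI, and in WT Fasl too. Of the 59 WT cells with at least 10 Gzma UMIs, 93.2% also had Nkg7, 83.1% Gzmb, 61.0% Fasl and 18.6% Prf1 UMIs without thinning. Of the 36 WT cells with 1 Gzma UMI, 13.9% had Gzmb and 19.4% Fasl, and these cells were the deeper ones, with a median of 3865 against 3217 UMIs. In the KO-labelled library the 28 rich cells had Nkg7 in 64.3%, Gzmb in 46.4%, Prf1 in 17.9% and Fasl in 10.7%, and the 137 cells with 1 Gzma UMI had Gzmb in 8.03% and Fasl in 8.03%, with Fasl in 14.7% of the 129 cells between. The rich KO-labelled cells were deeper, with a median of 5236.5 against 3462 UMIs. Fasl thus accompanied high Gzma in most WT cells but in few KO-labelled ones, over 59 and 28 cells. The rich cells were not matched by cluster between the libraries. Cluster 1, described below, held 62.0% of WT but 27.6% of KO-labelled Gzma UMIs, and cluster 2 held 12.2% and 51.4%. These gaps therefore cannot be told apart from the clusters in which the cells lay.

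**Figure D2:**
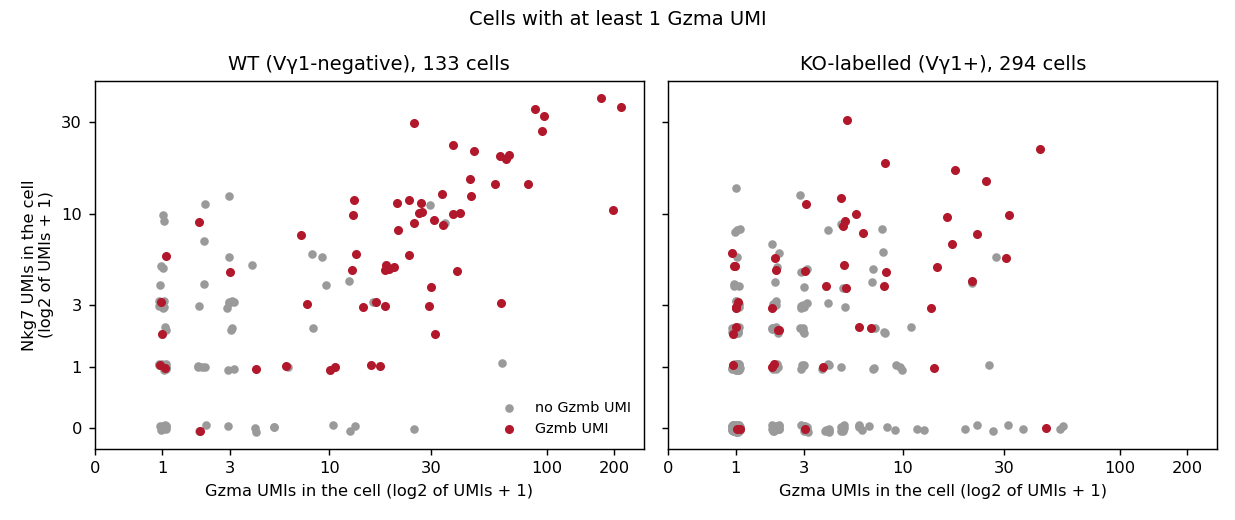
Gzma UMIs (x) against Nkg7 UMIs (y) in each T cell with Gzma, without thinning and both on a log2(UMIs + 1) axis with points slightly shifted, coloured by Gzmb detection. In WT the cells with at least 10 Gzma UMIs mostly had Gzmb (83.1%) and Nkg7 (93.2%), and in the KO-labelled library less often (46.4% and 64.3%). The cells were not matched by cluster.

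Combinations per cell were then counted at equal depth. At least 1 of the 7 genes was read in 31.2% of WT and 46.1% of KO-labelled T cells, and Nkg7 alone made up 14.8% and 30.8% of all T cells. At least 2 genes were read in 7.88% and 8.04%. At least 3 were read in 3.45% of WT (2.71 to 4.33) and 1.56% of KO-labelled cells (1.26 to 1.92), and at least 4 in 1.56% and 0.382%. No cell had 6 or 7 of the genes after thinning, and 7 WT cells and 1 KO-labelled cell had 5. Without cluster 1, described below, the log2 ratio of the shares with at least 3 genes was -0.38, against -1.14 with it. The order of the libraries thus turned with the number of genes asked for, from higher in the KO-labelled library for any gene to higher in WT for 3 or more. Any of the 7 was also read in 26.7% of 45 KO-labelled and 8.82% of 68 WT myeloid-like and B-like cells. That gap had the same direction, so the gap for any gene is not set apart from background.

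The pairing of granzymes with perforin was rare in both libraries. Prf1 with at least 1 granzyme was read in 15 WT cells (0.729%, 0.409 to 1.20) and 41 KO-labelled cells (0.712%, 0.511 to 0.964). Prf1 without a granzyme was read in 2.33% and 3.30%, and a granzyme without Prf1 in 10.7% and 8.42%. Since a cell thinned to 2000 UMIs can miss a transcript that it holds, absence of a gene in a cell is no measure of its expression. All 12 WT cells with Gzmk also had Gzma and Nkg7. Gzma with Gzmb was read in 45 WT (2.19%) and 24 KO-labelled cells (0.417%). Gzmb with none of the other 6 genes was read in 4.38% of WT cells and 2.38% of KO-labelled ones.

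The partners of each gene in a cell also differed between the libraries. Of the 98 WT cells with Gzma after thinning, 45.9% had Gzmb, against 6.43% of the other WT cells. Of the 196 KO-labelled cells with Gzma, 12.2% had Gzmb, against 5.41%. Nkg7 was read in 78.6% of WT Gzma cells, against 19.7% of the others. In the KO-labelled library it was read in 39.3% of Gzma cells, against 38.2%, so it was common there but hardly more so with Gzma. Without thinning, cluster 1, described below, had 71 WT Gzma cells with Nkg7 and 1 without, and 50 and 4 KO-labelled ones. In cluster 2, also described below, these numbers were 20 and 9 in WT and 55 and 54 in the KO-labelled library. Gzmb cells had Nkg7 in 45.0% (WT, 171 cells) and 51.4% (KO-labelled, 325 cells), against 20.4% and 37.5% of the others. Prf1 was read in 12.2% of WT and 8.16% of KO-labelled Gzma cells, against 2.60% and 3.86%, and in 4.68% and 7.69% of Gzmb cells, against 2.92% and 3.79%. Cells with more UMIs before thinning were not matched between these groups. The Gzmb and Prf1 shares were not split by cluster, so their gaps between the libraries cannot be told apart from the clusters of the cells.

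The KO-labelled cells with Gzma and no Nkg7 UMI (120 without thinning) differed from those with both (174) in the share of cells with some other genes. Cd24a, a surface protein of immature T cells, was read in 34.2% of the former and 22.4% of the latter, Sox4 in 35.0% and 26.4% and the gut-homing receptor Ccr9 in 32.5% and 23.0%. Ly6c2 was read in 17.5% and 54.0%, and the natural killer receptor gene Klrc1 in 2.50% and 25.9%. These genes were chosen after their values had been seen. Across all KO-labelled T cells Nkg7 was at 551.7 CPM with Ly6c2 and 243.0 CPM without it. Cells without Gzma are not split by Nkg7 here, so these differences cannot be told apart from those that go with Nkg7 alone. Transcripts of αβ T cell genes (Trac, Trbc1, Trbc2, Cd4, Cd8a and Cd8b1) summed to 2094 CPM in the 120 cells, 1696 CPM in the 174 cells and 1233 CPM in KO-labelled cells with fewer than 3 of the 7 genes. Cd8b1 also led the γδ1-like cluster 0, described below, so the sum is no count of αβ T cells. Cluster 0 held 43.3%, 29.3% and 36.7% of these 3 groups. The cells without Nkg7 were shallower, with a median of 3323.5 against 4480 UMIs.

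Receptor chains separated the granzymes in the WT library. Cells were grouped by the only γ variable gene with UMIs, which gave 361 Tcrg-V6 cells, 236 Tcrg-V4 cells and 311 Trgv2 cells in WT. Cells with several γ genes (706 in WT, 1909 in the KO-labelled library) and with none (706 and 2362) were left out. Tcrg-V6 cells had more Gzmb UMIs than UMIs of any other gene of the set. Their Gzmb level was 86.6 CPM (71.3 to 104), and 9.45% of 328 thinned cells had a Gzmb UMI, almost all of them with none of the other 6 genes (8.84%). They had 1 Gzma UMI, 0 of Gzmk, Gzmm and Fasl, 5.41 CPM of Prf1 and 38.6 CPM of Nkg7. Gzma with Gzmb was read in 0 of the 328 cells, which allows a share of up to 0.915%.

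WT Tcrg-V4 cells showed another makeup, with 59.0 CPM of Gzma, 36.9 CPM of Gzmb, 24.6 CPM of Prf1, 235.9 CPM of Nkg7 and 25.8 CPM of Fasl. The Tcrg-V6 over Tcrg-V4 log2 ratio was 1.23 (0.64 to 1.86) for Gzmb, -6.25 (-11.59 to -3.71) for Gzma and -2.61 (-3.09 to -2.15) for Nkg7. At the 30 UMI minimum 1 of the 7 genes was at least 2-fold higher and 2 were lower, where 6.21% of 6779 genes were higher and 3.97% lower. Prf1, at -2.18 with 27 UMIs, and Fasl, at most -3.48 against a floor of 3 UMIs, fell short of the minimum. With at least 2 UMIs of the chain gene required, the Gzmb ratio was 0.52 (-0.38 to 1.57), so it then could not be told from 0, and 1 gene was lower, where 4.95% of genes were, as it was without cluster 1, described below, where 3.85% were. The groups also differed in makeup, since Tmem176b was read in 88.1% of Tcrg-V6 and 39.8% of Tcrg-V4 cells, and Ly6c2 in 2.22% and 24.6%.

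WT Trgv2 cells held more of the set, with 572.8 CPM of Gzma, 108.1 CPM of Gzmb, 428.0 CPM of Nkg7 and 41.2 CPM of Fasl. At least 3 of the 7 genes were read in 6.25% of them (3.68 to 9.82), in 1.38% of Tcrg-V4 and in 0 of the Tcrg-V6 cells. Trgv2 and Tcrg-V1 are similar in sequence, so reads may be split between them. The WT sort excluded Vγ1 cells, and the 36 WT cells with only Tcrg-V1 UMIs had 326.8 CPM of Gzma (234 to 443).

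Delta chains divided the WT cells further, again by the only gene with UMIs. Cells with several δ genes (382 in WT, 1135 in the KO-labelled library) and with none (390 and 2098) were left out. The 283 cells with only Trdv2-2 held 1797 of the 2601 Gzma UMIs, a level of 1888 CPM, together with 192.3 CPM of Gzmb, 633.6 CPM of Nkg7 and 60.9 CPM of Fasl. Gzma with Gzmb was read in 10.8% of them (7.21 to 15.3) and at least 3 genes in 12.7% (8.89 to 17.5). As 13 WT cells held 50% of the Gzma UMIs, the Gzma level of this group may rest on few cells. Over WT cells with only Trdv5, 4 of the 7 genes were at least 2-fold higher, where 2% of genes were. The count was 4 without cluster 12, where 1.53% of genes were, and 3 without cluster 1, where 1.32% were, both described below. The 238 Trav13-4-dv7 cells, of which 65.5% had Ly6c2, instead had the higher values of Prf1 (46.7 CPM, against 18.9 CPM in Trdv2-2 cells) and Gzmm (20.7 against 11.6 CPM), with Fasl at 67.4 CPM and Gzma at 95.7 CPM. Prf1 was read in 9.38% of Trav13-4-dv7 and 2.39% of Trdv2-2 cells. Thus Gzma and Prf1 were highest in different delta chain groups of the WT library.

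The 700 WT Trdv4 cells, of which 89.0% had Tmem176b, had much of the makeup of Tcrg-V6 cells, with Gzmb at 89.1 CPM, Gzma at 27.0 CPM (69 UMIs, read in 0.312% of thinned cells), Fasl at 1.96 CPM and Gzmb alone in 9.66% (7.48 to 12.2). Of the 361 Tcrg-V6 cells 310 had only Trdv4 as their δ chain gene, so most Tcrg-V6 cells are among these 700, and those 310 had 89.0 CPM of Gzmb. Against the 371 Trdv5 cells the Trdv4 log2 ratio was 1.10 (0.65 to 1.57) for Gzmb, -1.18 (-1.68 to -0.69) for Gzma and -1.70 (-2.08 to -1.34) for Nkg7, where 6.47% of genes were at least 2-fold higher and 4.81% lower. Among chain pairs, the 55 cells with only Trgv2 and only Trdv2-2 had 500 Gzma UMIs (2677 CPM) and 342.6 CPM of Gzmb.

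In the KO-labelled library the chain groups lay closer together for Gzma. The 1153 cells with only Tcrg-V1 had 52.7 CPM of Gzma, 52.3 CPM of Gzmb, 20.9 CPM of Prf1, 327.6 CPM of Nkg7 and 30.3 CPM of Fasl. Against the WT Tcrg-V4 cells none of the 7 genes at the 30 UMI minimum differed by 2-fold in either direction, where 6.07% of genes were higher and 3.09% lower. Gzma was at -0.16 (-0.61 to 0.32), Gzmb at 0.50 (-0.05 to 1.10) and Nkg7 at 0.47 (0.26 to 0.70). Without cluster 1, described below, 4 genes were at least 2-fold higher, where 7.09% of all genes were. Against the WT Tcrg-V6 cells, Gzma was at 6.09 (3.60 to 11.40), Nkg7 at 3.08 (2.68 to 3.52), Prf1 at 1.95 (0.85 to 3.30) and Fasl at least at 3.71, whereas Gzmb was at -0.73 (-1.06 to -0.39). In that comparison 4 of the 7 genes were at least 2-fold higher, where 10.3% of genes were higher and 6.92% lower.

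Gzmb and Fasl parted between the KO-labelled delta chain groups. Gzmb had 87.4 CPM in 588 Trdv1 cells, 57.2 CPM in 928 Trav15-dv6 cells, 42.2 CPM in 873 Trdv2-2 cells and 19.9 CPM in 422 Trdv5 cells. As a single KO-labelled cell held up to 71 Gzmb UMIs, such levels may rest on few cells. Fasl had 8.96 CPM in Trdv1, 14.7 CPM in Trdv5, 21.4 CPM in Trav15-dv6 and 24.1 CPM in Trdv2-2 cells, so the group with the most Gzmb of these 4 had the least Fasl. The order of Trdv1 and Trav15-dv6 cells in Gzmb, a log2 ratio of -0.61, turned to 0.064 without cluster 1 and to 0.59 with at least 2 UMIs of the chain gene. Over Trdv1 cells the Fasl log2 ratio was 1.26 (0.54 to 2.04) in Trav15-dv6 cells, where 2.59% of genes were higher and 0.384% lower, and 1.43 (0.70 to 2.22) in Trdv2-2 cells, where 1.54% were higher and 0.339% lower. Gzmb was at -1.05 (-1.38 to -0.73) in Trdv2-2 and -2.14 (-2.73 to -1.58) in Trdv5 cells, where 1.38% of genes were higher and 0.5% lower. The Fasl difference of Trav15-dv6 cells was no longer 2-fold with at least 2 UMIs of the chain gene, where 2.07% of genes were higher, or without cluster 1, where 2.57% were. The 87 KO-labelled Trdv4 cells had 213.7 CPM of Gzmb (168 to 269) and 0 Gzma UMIs.

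**Figure D3:**
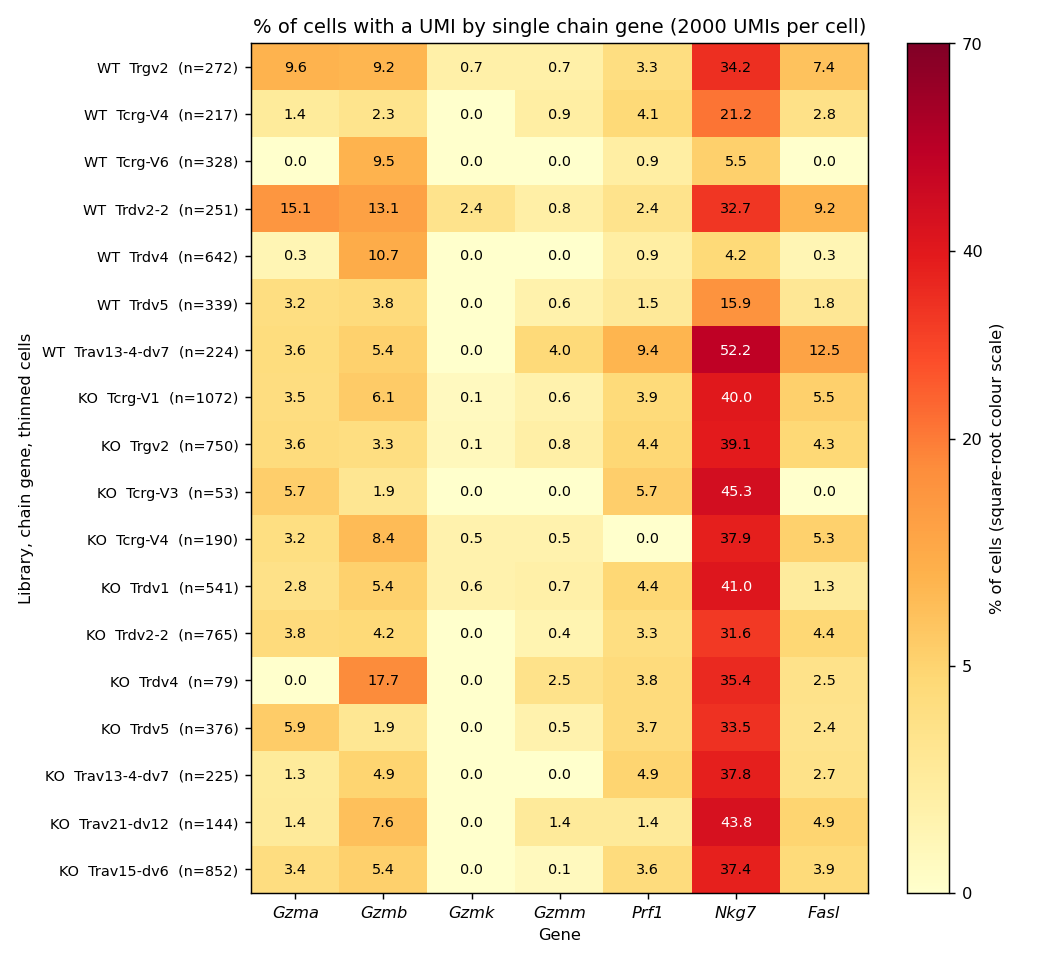
Percent of cells with a UMI of each gene (columns) in cells with a single γ or δ variable gene (rows, n thinned cells) at 2000 UMIs per cell, as printed values on a square-root colour scale. WT Trdv2-2 cells have Gzma in 15.1%, while WT Tcrg-V6 and Trdv4 cells have Gzmb (9.45% and 10.7%) with almost no Gzma or Fasl.

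Ly6c2 and Tmem176b detection also divided the set. Ly6c2 was read in 430 WT and 1602 KO-labelled T cells. In WT, 5 of the 7 genes were at least 2-fold higher with Ly6c2 at the 30 UMI minimum (Gzma 1.68, Gzmm 4.55, Prf1 2.25, Nkg7 2.19 and Fasl 2.46 on the log2 scale), where 2.66% of genes were and 8.51% were lower. In the KO-labelled library 4 were (Gzmm 2.44, Prf1 1.39, Nkg7 1.18 and Fasl 1.91), where 1.15% of genes were and 4.73% were lower. Gzmb differed least of the frequent genes, at 0.45 (0.21 to 0.69) and 0.42 (0.27 to 0.58), and turned to -0.26 and -0.68 without cluster 1, described below, where the KO-labelled count of 4 became 2 and 0.908% of genes were higher. Cells with Ly6c2 were deeper, with medians of 4114 against 3140 UMIs in WT and 3616.5 against 3478 in the KO-labelled library. Ly6c2 and Ly6c1 are near-identical, so reads may be split between them.

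Most genes of the set were lower with Tmem176b, but in the KO-labelled library Gzmb was higher and Fasl was not lower. In WT, 5 of the 7 genes were at least 2-fold lower with Tmem176b at the 30 UMI minimum, where 8.33% of genes were and 5.65% were higher. Gzma was at -6.17 (-6.67 to -5.71), Gzmm at -3.52, Nkg7 at -3.40, Fasl at -2.84 and Prf1 at -2.49. In the KO-labelled library 4 were lower, where 5.78% of genes were, with Gzma at -1.60 (-1.86 to -1.35), Gzmk at -3.50, Gzmm at -1.24 and Prf1 at -1.15. Fasl was at 0.12 (-0.15 to 0.38) and Nkg7 at -0.72 there. Gzmb went opposite ways, at -0.92 (-1.14 to -0.69) in WT and 1.56 (1.41 to 1.70) in the KO-labelled library, where 6.68% of genes were at least 2-fold higher, and the difference between the libraries was not tested. Without cluster 1, described below, the WT value was 0.45 (0.14 to 0.77) and the KO-labelled value 2.73, so the opposite direction rested on that cluster, and the KO-labelled count of 4 lower genes became 1, where 6.01% of genes were lower.

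The 4 combinations of both transcripts then showed which genes were found in the same groups of cells. In the 390 WT cells with Ly6c2 and no Tmem176b, Gzma had 741.4 CPM, Nkg7 716.6 CPM, Gzmb 114.6 CPM, Fasl 75.8 CPM and Prf1 49.7 CPM, and 10.5% had at least 3 genes (7.58 to 14.1). In the 1112 WT cells with Tmem176b and no Ly6c2, Gzmb had 59.0 CPM and Nkg7 25.6 CPM, whereas Gzma had 1.93 CPM and Fasl 4.84 CPM. Gzmb alone was read in 6.85% of these (5.40 to 8.55), at least 3 genes in 0.190%, and Gzma with Gzmb in 0 of 1051 cells, which allows up to 0.285%. The 870 WT cells with neither transcript still had 539.3 CPM of Gzma and at least 3 genes in 4.87%, although they were the shallowest, with a median of 2620 UMIs.

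In the KO-labelled library too Gzma and Fasl were lower with Tmem176b alone than with Ly6c2 alone, whereas Gzmb was higher. In 1439 cells with Ly6c2 alone of both, Gzma had 69.4 CPM, Gzmb 63.9 CPM, Prf1 35.5 CPM, Nkg7 546.1 CPM and Fasl 46.8 CPM, and 4.59% had at least 3 genes (3.54 to 5.85). In 1340 cells with Tmem176b alone, Gzmb had 111.6 CPM, Fasl 18.3 CPM and Gzma 12.8 CPM, and Gzmb alone was read in 7.32% (5.95 to 8.90). The 163 cells with both had the highest Gzmb level of the 4 groups, 134.9 CPM (111 to 162), with Nkg7 at 591.0 CPM and Fasl at 63.3 CPM. The 3632 cells with neither had 27.5 CPM of Gzmb and at least 3 genes in 0.469%, against 4.87% in WT.

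Cells of like markers were compared between the libraries. Among cells with Ly6c2 and no Tmem176b, WT over KO-labelled log2 ratios were 3.42 (3.26 to 3.58) for Gzma and 1.53 (0.87 to 2.18) for Gzmm, and the other genes at the minimum lay within 2-fold (Gzmb 0.84, Fasl 0.70, Prf1 0.48 and Nkg7 0.39), where 2.36% of genes were higher and 2.93% lower. Among cells with Tmem176b and no Ly6c2 the direction was the reverse, with Gzma at -2.73 (-3.99 to -1.68), Nkg7 at -2.71 (-3.01 to -2.42) and Fasl at -1.92 (-2.69 to -1.22), where 3.77% of genes were lower and 3.33% higher. Within KO-labelled Tcrg-V1 cells the same division held. Gzmb had 99.3 CPM (82.0 to 119) with Tmem176b alone and 56.5 CPM with Ly6c2 alone, while Fasl had 22.3 and 55.7 CPM.

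**Figure D4:**
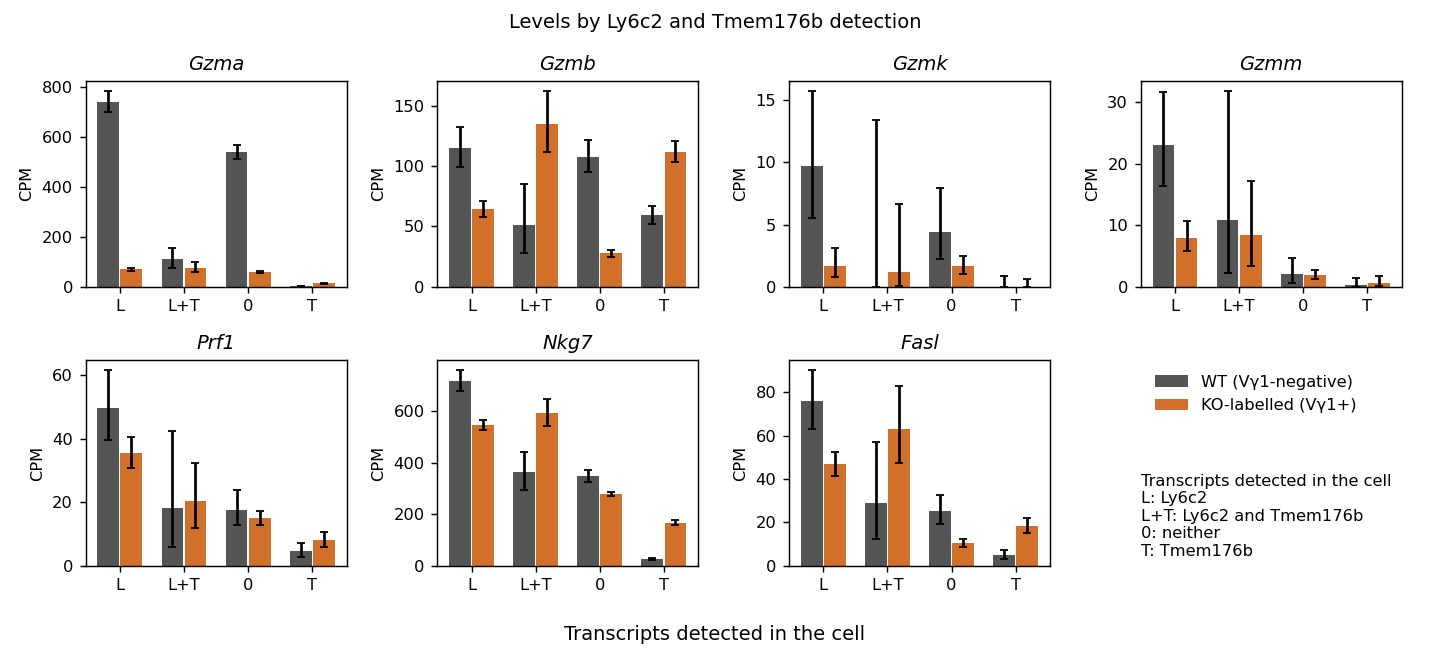
Level (CPM, bars, with 95% counting intervals) of the 7 genes in T cells with Ly6c2 (L), both (L+T), neither (0) or Tmem176b (T) UMIs in each library. Cells with Tmem176b and no Ly6c2 keep Gzmb (59.0 CPM in WT, 111.6 CPM in the KO-labelled library) while Gzma is at 1.93 and 12.8 CPM.

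Clustering without the 7 genes, receptor genes and sex-linked genes placed these transcripts in few clusters. Cluster 1, which stayed unnamed and was led by Klrc1, Klrb1c, Ifng, Ccl5 and Klre1 beside Gzma and Fasl, held 261 WT and 566 KO-labelled cells. It held 62.0% of WT Gzma UMIs and 27.6% of those in the KO-labelled library, 70.3% and 52.2% of Fasl and 46.6% and 35.6% of Gzmb. Without it the Gzma log2 ratio of the libraries was -1.70, that of Gzmb -0.29, that of Prf1 0.50, that of Fasl 0.54 and that of Nkg7 0.85, and the Gzma share of cells was higher in the KO-labelled library (log2 ratio of shares 0.46, against -0.49 with it). Gzmk, at 1.52 (-0.54 to 4.68), also turned. Cluster 1 was left out as the cluster with the most Gzma UMIs. It held a larger part of the UMIs of each of the 7 genes in WT, such as 48.3% against 21.6% of Nkg7 and 43.8% against 21.3% of Prf1. Leaving it out therefore raises the KO-labelled over WT CPM ratios of all 7, and the share ratio of Gzma, by construction. Cluster 2, led by Cd24a, Kit and Sox4, held 51.4% of KO-labelled Gzma UMIs and 12.2% of those in WT. Cluster 12, of 7 WT and 15 KO-labelled dividing cells, held 21.9% of WT Gzma UMIs, and without it the library ratio was -2.23.

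Gzmb outside cluster 1 lay mostly in γδ17-like clusters. Cluster 8, led by Trdv4 and Tcrg-V6 and with 569 WT and 12 KO-labelled cells, held 29.6% of WT Gzmb UMIs at 95.9 CPM, with 3 Gzma UMIs. Cluster 3, also γδ17-like, held 41.6% of KO-labelled Gzmb UMIs at 117.3 CPM, against 8.57 CPM of Gzma. The γδ1-like cluster 0, led by Cd8b1 and Ccr7, was 35.7% of the filtered KO-labelled cells and held 40.7% of KO-labelled Prf1 UMIs, at 24.5 CPM of Prf1 against 50.8 CPM in cluster 1, and its Gzmb was at 10.8 CPM. The 125 WT and 234 KO-labelled cells with both Gzmb and Tmem176b UMIs had 4533 and 2554 CPM over the γδ17 marker list. They were picked by Tmem176b, itself a transcript of interleukin-17-type lymphocytes, and Tmem176b cells without Gzmb were not summed. These sums therefore say nothing of Gzmb.

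**Figure D5:**
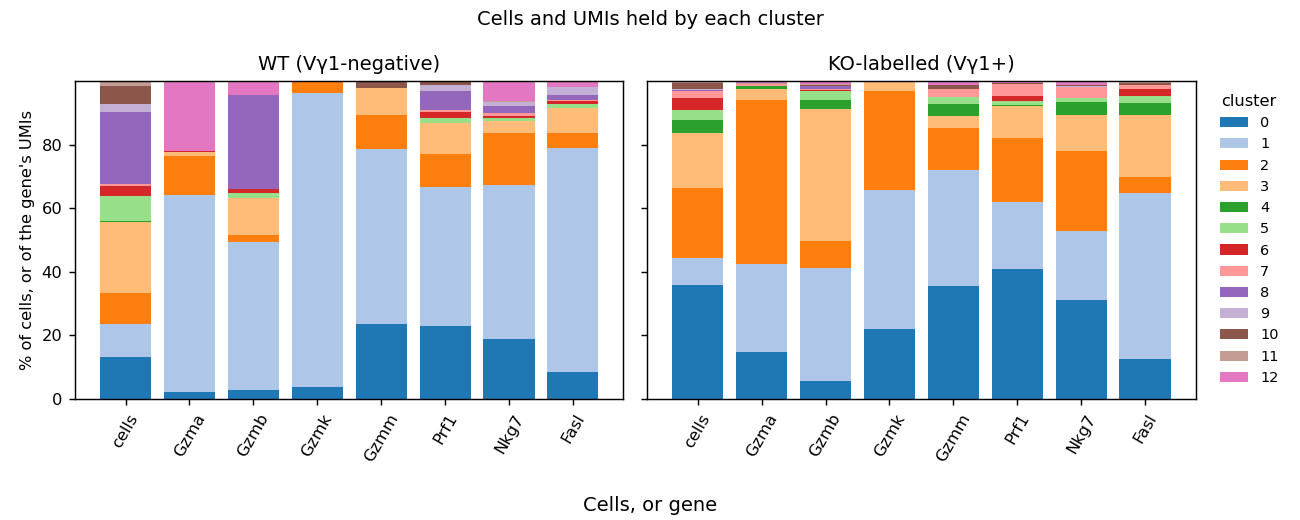
Percent of cells, and of each gene's UMIs, held by each cluster (colours) in the WT and KO-labelled libraries. Cluster 1 holds 62.0% of WT Gzma and 70.3% of WT Fasl UMIs, while the largest part of KO-labelled Gzma lies in cluster 2 (51.4%) and of KO-labelled Gzmb in cluster 3 (41.6%).

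Cells with at least 3 of the 7 genes were checked for markers of other cells. Without thinning there were 110 such WT and 204 such KO-labelled cells, of which 96.4% and 99.0% had a Cd3d, Cd3e or Cd3g UMI, against 92.1% and 96.3% of the other cells. The 7 genes of the natural killer cell list summed to 494.4 CPM against 43.8 CPM in WT and 243.9 against 30.9 CPM in the KO-labelled library. The 4 genes of the dividing-cell list summed to 197.8 against 23.8 CPM in WT and 77.9 against 24.9 CPM in KO-labelled cells. The αβ T cell list summed to 882 against 905 CPM and 1116 against 1233 CPM, and the myeloid list to 194 against 240 CPM and 191 against 209 CPM, with Csf1r, Spi1 and C1qa at 0 in these cells. Of the cells with at least 3 genes, 79.1% of WT and 61.8% of KO-labelled ones lay in cluster 1. The part of doublets, of dividing cells and of natural killer cells in these values was not tested.

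A list of 40 other genes of the pathway was counted in the same comparisons. Between the libraries 33 reached 30 UMIs, with 1 higher and 5 lower in KO-labelled cells at 2-fold, where 3.24% of all genes were higher and 5.45% lower, and a median log2 ratio of -0.20, against 0.03 over all genes. Hopx, a regulator of effector T cells, was higher (1.19). Serpinb1a (-1.49) and Serpinb6a (-1.13), which are serine protease inhibitors, Stx11 (-1.19), a syntaxin of granule release, and the regulators Zeb2 (-2.13) and Prdm1 (-1.31) were lower. Of the other granzymes only Gzmc reached the minimum.

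With Tmem176b, inhibitors such as Serpinb1a and the tumour necrosis factor genes Tnf and Lta were higher while the cytotoxic regulator Eomes was lower. In WT 6 of the 33 genes were higher (Serpinb1a 2.81, Tnf 2.06, Serpinb6a 1.92, Stx11 1.79, Lta 1.77 and Prdm1 1.67) and 5 were lower, among them Eomes (-2.85), Tnfsf10 (-2.23), Ctsw (-2.07) and Tbx21 (-1.46). Among KO-labelled cells 8 were higher, led by Gzmc (3.22), Serpinb1a (2.88) and Tnf (2.37) and with Serpinb9, an inhibitor of granzyme B, at 1.13, and 2 were lower (Eomes -2.30 and Zeb2 -1.14). Of all genes 5.65% were higher and 8.33% lower with Tmem176b in WT, and 6.68% and 5.78% in KO-labelled cells. With Ly6c2, 6 genes of the list were higher and 6 lower in WT, where 2.66% and 8.51% of all genes were, and 3 and 5 in KO-labelled cells, where 1.15% and 4.73% were. Tbx21 was higher in both libraries (1.69 and 1.66), as were Hopx (1.01 and 1.37) and Serpinb6b (1.34 and 1.22), while Serpinb1a (-2.36 and -1.28), Tnf (-1.79 and -1.43) and Lta (-1.51 and -1.44) were lower. The list medians were -0.21 and -0.13 with Ly6c2 and 0.16 and 0.10 with Tmem176b, against medians of all genes of -0.10 and -0.09 and of -0.13 and -0.08.

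The genes whose levels were most like those of each member were found by Pearson's r of log2(CPM + 10) over 18 units, each 1 cluster in 1 library, among 7258 genes. The units share libraries and differ in depth, so these values are descriptions. Gzma was most like Eomes (0.92), Sult2b1 (0.89) and Hhex (0.87). Gzmb was most like Serpinb6b (0.86), Gm14029 (0.85) and Serpinb9 (0.81), where Serpinb6b and Serpinb9 encode granzyme inhibitors. Gzmk and Prf1 had Eomes among their 3 as well, and Prf1 also had Klrd1 (0.85). Nkg7 was most like Ctsw (0.97), a cathepsin of cytotoxic cells, and Fasl most like Slamf7 (0.90).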

How the data were processed

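Droplet libraries were made from sorted lung γδ T cells, 1 library for WT and 1 for KO. The authors deposited filtered matrices of UMI counts per gene and barcode, made with Cell Ranger 7.0.0 per the file headers and mapped to mm10 per the submitters' processing notes, whereas an older release is named in the methods of the study. The labels name a 3′ protocol and the methods a 5′ V(D)J kit, and no source used here gives the annotation, strand or intron settings. The order of reads along a transcript therefore cannot be compared between genes, and overlapping genes may share counts.

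The study's stated filter, more than 200 and fewer than 4000 genes and less than 10% mitochondrial UMIs, kept 2505 of 2520 WT and 6634 of 6688 KO barcodes, more than the study states. Cells were clustered with scanpy 1.11.5 and leidenalg 0.10.2 on counts scaled to 10000 per cell, 2000 variable genes (scaled, capped at 10), 30 principal components and 15 neighbours at resolution 0.5 with seed 0, leaving out the 7 genes, receptor genes and sex-linked genes. Myeloid-like and B-like clusters (93 WT and 60 KO cells) were set aside. Clusters were named from fixed marker lists. Doublets were not removed, since Scrublet called 231 WT cells but only 1 KO cell, and as an alternative the 51 WT and 358 KO cells with the highest scores were left out.

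UMIs were summed per group and divided by the total of that group (CPM). Shares were taken after thinning to 2000 UMIs, and the shallower T cells (355 WT and 813 KO) were left out there. Intervals are exact at 95% (conditional binomial for ratios, Clopper-Pearson for shares), a count of 0 was read as up to 3 counts, and fold limits of 2 were applied to genes with at least 30 UMIs in both groups together. Each group was 1 library, so no test was made. The ratio and thinning steps were tested on simulated data. Named genes were the 7 members, those that define groups, pathway genes past the limit and, for each member, the 3 genes most like it, beside cluster markers. Members and lists were chosen with earlier results of these data known. Promoters came from RefSeq (GRCm38.p6), in which all 7 genes matched. Calculations used Python 3.11.15 with pandas 2.3.3, matplotlib 3.10.9, scipy 1.17.1, numpy 2.4.6 and igraph 0.11.9.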

Additional observations from a re-analysis of the deposited data

Results flagged for a closer look

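Gzmb differed in opposite directions with Tmem176b in the 2 libraries, at a log2 ratio of -0.92 in WT and 1.56 in KO-labelled T cells, and the difference was not tested. Without cluster 1 the values were 0.45 and 2.73, which have the same direction.

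Some of the genes were read outside the T cells above the level that a count of 0 allows, without thinning. Of the 93 WT myeloid-like and B-like cells, 17.2% had an Nkg7 UMI and 4.30% a Fasl UMI. Of the 60 KO-labelled cells of these kinds, 30% had an Nkg7 UMI. Among barcodes that the cell filter removed, Nkg7 was read in 60% of 15 in WT, and in 55.6% of 54 in the KO-labelled library, where Gzmb was read in 11.1%.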

How the results depend on the processing

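No paired analysis was possible because there was only 1 library in a group, and for the same reason no replicate could be left out. Alternatives changed the cell filter, non-T cells, doublets, scaling, thinning depth and seed, detection limits, minimum UMIs, and clustering. Leaving out cluster 1, keeping only cells with a Cd3 UMI, unscaled clustering and the Y-linked and Xist split were chosen after seeing the data. Cluster 1 was picked because it held the most Gzma UMIs, so values without it are not independent of Gzma. It also held a larger part of the UMIs of each of the 7 genes in WT. Leaving it out therefore raises their KO-labelled over WT CPM ratios by construction. Of 198 repeats of the main comparisons 164 stayed within the counting interval or, for counts, within 1.5 times, 30 moved further and 4 reversed. For single genes in the group contrasts these numbers were 144, 74 and 7 of 225. The causes were not tested.

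Without cluster 1 the log2 ratio (KO-labelled over WT) of the share of cells was 0.46 for Gzma (reversed from -0.49), 0.85 for Prf1, 1.13 for Nkg7, 0.53 for Fasl and -0.38 for at least 3 genes. The CPM ratio was then -1.70 for Gzma, -0.29 for Gzmb, 1.52 for Gzmk (reversed from -1.34), 0.50 for Prf1, 0.85 for Nkg7 and 0.54 for Fasl. Without cluster 12, which had the highest Gzma level, the CPM ratio was -2.23 for Gzma and 0.38 for Nkg7, and in thinned cells it was 0.43 for Nkg7. Against WT cells with Y-linked UMIs the CPM ratio was -1.67 for Gzma, 0.56 for Gzmk (reversed), 0.39 for Prf1, 0.53 for Nkg7 and 0.44 for Fasl, and among cells with Xist alone 0.52 for Gzmk (reversed), -1.72 for Gzmm, 0.17 for Nkg7 and -0.63 for Fasl. Thinned to 3000 UMIs, the share ratio was -0.59 for Gzmk (-2.26 at 2000) and -0.69 for at least 3 genes, which was -0.56 without thinning. Genes at least 2-fold higher in the KO-labelled library made up 1.89% of those with at least 100 UMIs.

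Without cluster 1 the count of members at least 2-fold higher was 2 with Ly6c2 in the KO-labelled library, 4 for KO-labelled Tcrg-V1 over WT Tcrg-V4 cells and 0 for Trav15-dv6 over Trdv1 cells, and the count lower was 1 with Tmem176b in the KO-labelled library and 1 for Tcrg-V6 over Tcrg-V4 cells. With at least 2 UMIs of the chain gene, 0 were higher in Trav15-dv6 over Trdv1 cells and 1 was lower in Tcrg-V6 over Tcrg-V4 cells. Reversed without cluster 1 were Gzmb with Ly6c2 (-0.26 in WT, -0.68 in KO-labelled cells), Gzmb with WT Tmem176b (0.45), and Gzma (0.99) and Gzmb (0.064) in Trav15-dv6 over Trdv1 cells, the latter also with at least 2 chain UMIs (0.13 and 0.59). The largest cluster share of Gzma UMIs at resolution 1.0 was 63.0% (WT) and 31.1% (KO-labelled), 62.1% and 58.9% with seed 1, and 94.3% and 39.5% unscaled.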
